A study of Mus musculus and Homo sapiens with 22 samples.

Results

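The SR-related matrix genes Srrm1, Srrm2, Srrm3 and Srrm4 encode nuclear proteins rich in arginine and serine repeats that help the spliceosome choose exons without being classical SR proteins. All 4 were found by symbol among the 22667 mouse gene identifiers of N2A cells, a mouse neuroblastoma line, of which 20759 were paired with a symbol. Their Ensembl identifiers are ENSMUSG00000028809 (Srrm1), ENSMUSG00000039218 (Srrm2), ENSMUSG00000039860 (Srrm3) and ENSMUSG00000063919 (Srrm4). RNA-seq was used to follow them after loss of 3 splicing regulators. One of these is a member itself, since nSR100 is the protein of Srrm4. The other two are Ptbp1, which represses neuronal exons, and U2af65, the product of U2af2, which binds the polypyrimidine tract before the 3′ splice site.

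The groups were these. N2A cells stably carrying a lentiviral hairpin against the 3′ untranslated region of nSR100 (shnSR100) were set against cells carrying a hairpin against GFP (shGFP). Both were populations selected with 2 ug/mL puromycin, and each had 1 file in which 2 sequencing runs were combined. N2A cells transfected with an siRNA pool against U2af65 (siU2af65, 1 library) or against Ptbp1 (siPtbp1, 1 library) were set against cells given a non-targeting pool (siCtrl, 2 libraries, a and b), all harvested after 48 hours. Nothing in the labels tells whether controls a and b were grown apart, so each p-value here reflects library-to-library spread that may be technical alone. Reads in genes numbered 60220620 to 77138004 per N2A file. In 293T cells, a human embryonic kidney line, nSR100 was expressed from a doxycycline-inducible construct and set against a 293T control. For both 293T groups, 1 file each, the labels give 2 ug/mL puromycin, 1 ug/mL doxycycline and 48 hours. However, 0 of 19847 human identifiers could be paired with a symbol, so no human value is given under the name of a member.

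The targeted genes were low in their own knockdowns. U2af2 stood at 18.4 RPKM (reads scaled to gene length and library size) in siU2af65, against 113 and 105 RPKM in siCtrl a and b. Ptbp1 stood at 8.53 RPKM in siPtbp1, against 158 and 139 RPKM in siCtrl a and b. The neuronal markers Tubb3, Stmn2, Snap25, Uchl1, Map1b and Gap43 summed to 1186 to 1894 RPKM in the 6 N2A files, and 6 of 7 markers of other cell types were under 0.5 RPKM in each file. The exception was Pecam1, an endothelial adhesion gene, at 4.54 to 9.15 RPKM.

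As background, Srrm1 and Srrm2 encode splicing coactivators found in all cells. The Srrm1 protein travels with the exon junction complex that marks spliced mRNA, and the Srrm2 protein is a scaffold of nuclear speckles that also sits in the active spliceosome. Srrm3 and Srrm4 encode neural relatives that promote inclusion of short neuronal exons, and Srrm4 binds UGC-containing sequence just upstream of such exons. The values here are reads per gene and say nothing of exon inclusion.

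The RefSeq starts of these genes in GRCm38.p6 are shown to set the widely expressed pair beside the neural pair, within which Srrm3 had far fewer CpG than Srrm4. Each line gives the 30 bases just before the annotated start, 5′ to 3′ on the gene's strand, with each CpG in capitals. Of the listed Srrm2 starts, only the one with the lower coordinate is shown.
Srrm1 (chr4:135353147-135353176, minus strand): cCGtCGCGgCGgCGCGgtgcaCGctgggat
Srrm2 (chr17:23803157-23803186, plus strand): tcatgattgCGtgctgaCGcactaggtCGt
Srrm3 (chr5:135818076-135818105, plus strand): aacacccagtgcttttaacccttgggccat
Srrm4 (chr5:116591818-116591847, minus strand): caaaaccCGggCGCGcCGgagctcacaCGc

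Over the whole window of 300 bases around the start (250 before, 50 after), the Srrm1 promoter held 40 CpG. Among 32851 promoters of this length, 3.91% held at least as many. The Srrm2 windows, from 2 listed starts, held 30 and 33 CpG, and the Srrm4 window 25, a number reached by 18.4% of promoters. The Srrm3 window held 5 CpG, below the median of 7 over all promoters, and 62.0% of promoters held at least as many. The letters say nothing about which factor acts there.

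Per length, Srrm1 and Srrm2 were high in every N2A file, at 88.9 RPKM or more, and Srrm3 and Srrm4 were far lower, at 14.6 RPKM or less. Srrm1 RPKM exceeded that of at least 96.3% of genes with a value in each file, and Srrm2 RPKM at least 96.5%. Srrm3 exceeded 59.7% to 72.7% of genes and Srrm4 50.6% to 70.6%. The members of each pair changed places between files. Srrm2 over Srrm1 RPKM ran from 0.904 in siPtbp1 to 1.35 in shGFP. Srrm4 was below Srrm3 in every file but siU2af65.

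**Figure D1:**
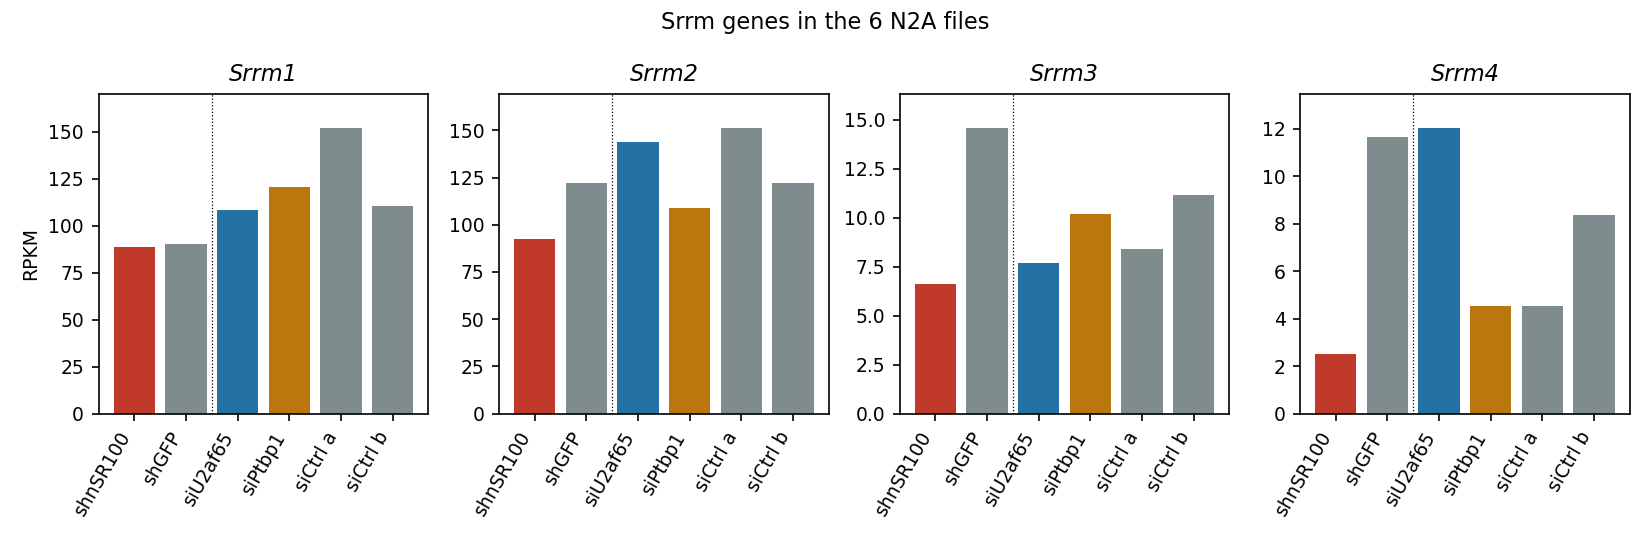
RPKM of each member (one panel per gene, linear axis from 0, scales differ) in the 6 N2A files, with the hairpin files left of the dotted line and the siRNA libraries right of it. Every member is lowest in shnSR100 (Srrm1 88.9, Srrm2 92.5, Srrm3 6.61 and Srrm4 2.50 RPKM). Srrm1 is only slightly higher in shGFP, at 90.3 RPKM. Srrm4 differs between siCtrl a and b, at 4.54 and 8.37 RPKM.

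Srrm4, the gene of nSR100, was the member that varied most, from 2.50 to 12.0 RPKM over the N2A files, a 4.81-fold range. It had 1365 reads and 2.50 RPKM in shnSR100, against 5203 reads and 11.6 RPKM in shGFP. In the siRNA libraries it had 12.0 RPKM in siU2af65 and 4.51 RPKM in siPtbp1, against 4.54 and 8.37 RPKM in siCtrl a and b. shnSR100 was thus the lowest of the 6 files. siPtbp1 and control a were nearly equal, and siU2af65 lay above both controls but close to shGFP. In the hairpin files Srrm4 stood at 21.5% of shGFP (95% counting interval 20.2 to 22.8%, exact binomial). The interval covers counting error alone, since neither hairpin group had a replicate. On the log2(RPKM + 1) scale the difference was -1.85, and only 6 of the 11877 genes with at least 1 RPKM in one hairpin file, Srrm4 included, were as low or lower. Against the siRNA controls shnSR100 stood at 55.1% of control a and 29.9% of control b, so the depth of the depletion depended on the control chosen.

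Srrm3, the neural paralog of Srrm4, was also lowest in shnSR100, as were the widely expressed Srrm1 (88.9 RPKM) and Srrm2 (92.5 RPKM). Being lowest there was thus not particular to the neural pair, though Srrm1 was only slightly higher in shGFP, at 90.3 RPKM. How many of all genes were lowest in shnSR100 was not counted. Srrm3 had 1890 reads and 6.61 RPKM in shnSR100, against 3412 reads and 14.6 RPKM in shGFP, which was its highest value. It had 7.67 RPKM in siU2af65 and 10.2 RPKM in siPtbp1, against 8.42 and 11.2 RPKM in siCtrl a and b. Its level in shnSR100 was 45.3% of shGFP (95% counting interval 42.8 to 48.0%, exact binomial), and its log2(RPKM + 1) difference was -1.03, just past the 2-fold mark of 1. Against siCtrl a and b shnSR100 stood at 78.5% and 59.2%, and there Srrm3 was short of that mark. Reads of overlapping genes cannot be told apart where strand use is unknown: Srrm4os overlaps Srrm4 and Elob overlaps Srrm2 in the RefSeq annotation, while no annotated gene overlapped Srrm3 or Srrm1. Elob stood at 218 to 284 RPKM over the 6 files.

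Srrm1 had 88.9 RPKM in shnSR100, against 90.3 RPKM in shGFP. Its reads, 20293 in shnSR100 and 16876 in shGFP, gave 98.4% of shGFP (95% counting interval 96.4 to 100.4%, exact binomial). Srrm2 had 92.5 RPKM in shnSR100, against 122 RPKM in shGFP. It stood at 75.8% of shGFP (95% counting interval 75.0 to 76.7%, exact binomial), and 8.36% of genes were as low or lower. Of the 4 members 2, Srrm3 and Srrm4, were thus lower by 1 or more on the log2(RPKM + 1) scale, as were 0.615% of all 11877 genes, while 0.918% differed that far in either direction. Srrm4 is the gene the hairpin targets.

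Neuronal markers were lower in the same file. All 6 neuronal markers had lower RPKM in shnSR100 than in shGFP, as did 44.0% of all 11877 genes. The log2(RPKM + 1) differences of the markers ran from -1.18 to -0.19. Their median was -0.79, where the median over all 11877 genes was 0.03. Snap25, a synaptic vesicle fusion gene, stood at 44.5 RPKM in shnSR100, against 102 RPKM in shGFP. The summed markers gave 1186 RPKM in shnSR100, against 1759 RPKM in shGFP and 1759 and 1755 RPKM in siCtrl a and b. Fewer cells of a kind and less RNA per cell cannot be told apart in bulk RNA, and the part of this shift in the Srrm3 difference was not tested.

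**Figure D2:**
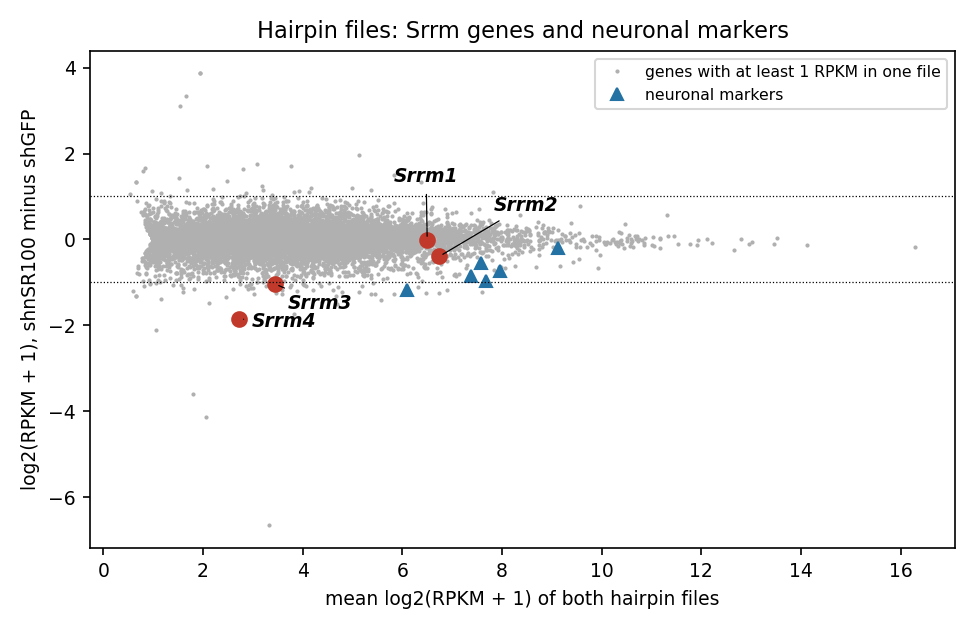
Each point is a gene with at least 1 RPKM in one hairpin file, placed by its mean log2(RPKM + 1) (x) and by the log2(RPKM + 1) difference of shnSR100 minus shGFP (y), with dotted lines at 1 and -1. Srrm4 (-1.85) and Srrm3 (-1.03) lie below the lower line, Srrm1 (-0.02) and Srrm2 (-0.40) do not, and the 6 neuronal markers (triangles) all lie below 0.

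After U2af65 knockdown Srrm4 and Srrm3 had differences of opposite sign, and none of the 4 members passed the test. edgeR's quasi-likelihood test on the 4 siRNA libraries called 0 of 4 members at an adjusted p under 0.05, where 5.24% of 11237 tested genes were called, 1.82% higher and 3.42% lower. DESeq2 and limma also called 0 of 4, where they called 9.3% and 11.4% of all genes. At an unadjusted p under 0.05 edgeR had 1 of 4 members, Srrm4, where 23.5% of all genes were. Srrm4 stood at 85.7 CPM (reads scaled to the TMM-adjusted library size) in siU2af65, against 48.8 ± 17.8 CPM in siCtrl (SD, n = 2). Its log2 difference was 0.81 (SE 0.29, edgeR adjusted p = 0.135), and the adjusted p ran from 0.0139 to 0.745 over 8 alternatives. It was called in 2 of these, edgeR with library totals (adjusted p = 0.0139) and edgeR with no filter (adjusted p = 0.0357). The highest, 0.745, came with shGFP added to the controls, where no gene was called, the targeted U2af2 included. The Srrm4 difference was 1.24 against control a, which shares its letter with siU2af65, and 0.48 against control b.

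Srrm3 stood at 28.6 CPM in siU2af65, against 38.9 ± 5.41 CPM in siCtrl (SD, n = 2), lower by a log2 difference of -0.45 (edgeR adjusted p = 0.326, SE 0.26). Against control a and control b alone the difference was -0.30 and -0.58. Srrm1 stood at 322 CPM in siU2af65, against 423 ± 119 CPM in siCtrl (SD, n = 2), a difference of -0.39 (SE 0.30, edgeR adjusted p = 0.475). Srrm1 in siU2af65 was close to control b, at 339 CPM, and below control a, at 507 CPM. Srrm2 stood at 1181 CPM in siU2af65, against 1210 ± 252 CPM in siCtrl (SD, n = 2). Its difference of -0.03 (SE 0.35, edgeR adjusted p = 0.967) changed sign with the scaling, to 0.07 with library totals.

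After Ptbp1 knockdown no member passed the test either. edgeR called 0 of 4 members, where 0.0267% of tested genes were called, and DESeq2 and limma called 0 of 4, where they called 0.178% and 0.881% of all genes. At an unadjusted p under 0.05 edgeR also had 0 of 4, where 4.28% of all genes were. Srrm4 stood at 33.3 CPM in siPtbp1, against 36.2 and 61.4 CPM in siCtrl a and b, a difference of -0.55 (SE 0.31, edgeR adjusted p = 0.999). Against control b, which shares its letter with siPtbp1, the difference was -0.88, and against control a it was -0.12. Srrm3 stood at 39.3 CPM in siPtbp1, between the controls at 35.1 and 42.8 CPM (difference 0.01, SE 0.25, edgeR adjusted p = 0.999). Srrm2 stood at 926 CPM in siPtbp1, against 1389 and 1032 CPM in siCtrl a and b, a difference of -0.39 (SE 0.35, edgeR adjusted p = 0.999). Srrm1 stood at 372 CPM in siPtbp1, between the controls, and its log2 estimate was -0.19 (edgeR adjusted p = 0.999, SE 0.30).

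The widest gap of a member within the siRNA libraries was that of Srrm4 between the knockdowns. siU2af65 has the letter a and siPtbp1 the letter b, so knockdown and letter cannot be told apart in this contrast. Between the controls Srrm4 was higher in b than in a, by 0.75 on the log2(CPM + 1) scale. Srrm4 had 85.7 CPM in siU2af65, against 33.3 CPM in siPtbp1. The estimate of 1.37 on the log2 scale, with an SE of 0.35, missed the threshold (edgeR adjusted p = 0.0642). Over 8 alternatives the adjusted p ran from 6.32e-04 to 0.659, and 6 of them called it, DESeq2 (adjusted p = 0.0161) and limma on log2(RPKM + 1) (adjusted p = 0.0376) among them. The highest came with shGFP added to the controls, where no gene was called. edgeR called 0 of 4 members in this contrast, where 3.62% of tested genes were called (1.09% higher, 2.54% lower), and DESeq2 and limma each called 1, Srrm4, where they called 7.42% and 9.49% of all genes. At an unadjusted p under 0.05 edgeR had 1 of 4, where 20.8% of all genes were. The differences of Srrm1, Srrm2 and Srrm3 between the knockdowns were -0.21, 0.35 and -0.46 (edgeR adjusted p = 0.787, 0.672 and 0.409).

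**Figure D3:**
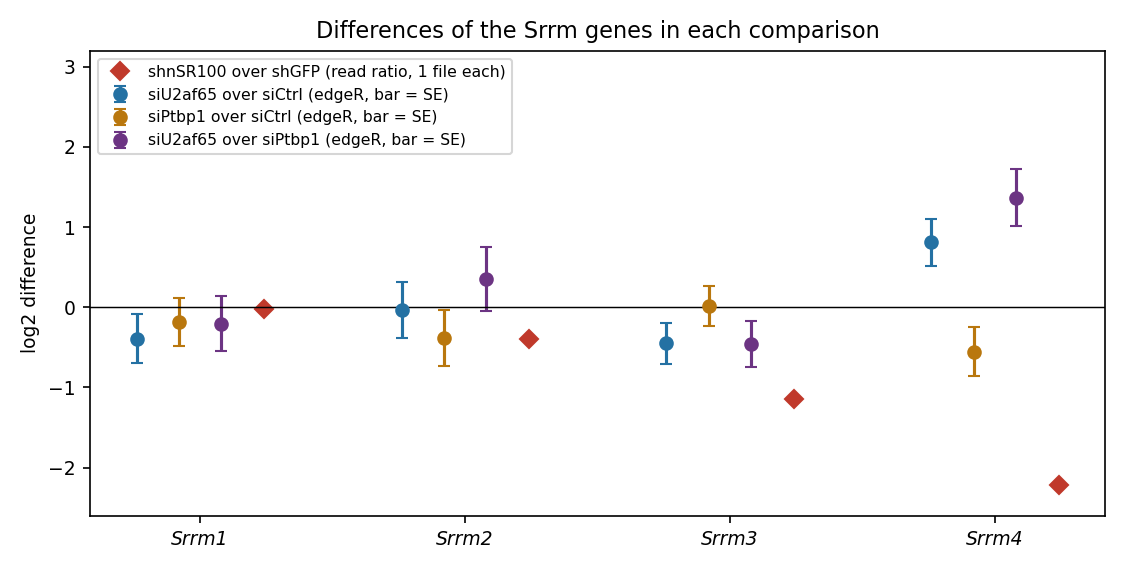
Log2 differences of the 4 members, as edgeR estimates with their SE (circles with bars) for the siRNA comparisons and as the log2 ratio of depth-scaled reads for the hairpin files (diamonds, 1 file each, no error bar). Srrm4 has the highest siRNA estimate, 1.37 for siU2af65 over siPtbp1, and the lowest hairpin value, -2.22, while the siRNA estimates of Srrm1 and Srrm2 lie between -0.39 and 0.35.

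The control pair was the only source of spread between like libraries in these tests, and 2 members differed widely within it. Srrm4 stood at 61.4 CPM in control b, against 36.2 CPM in control a, a difference of 0.75 on the log2(CPM + 1) scale that 5.23% of the 11237 tested genes reached or passed. Srrm1 went the other way, with 339 CPM in control b, against 507 CPM in control a, a difference of -0.58 that 10.4% of genes reached or passed. The differences of Srrm2 and Srrm3 were -0.43 and 0.28, and the median size over all tested genes was 0.21. The fit has 1 residual degree of freedom per gene and 8.65 prior degrees of freedom from the spread over all tested genes. The error of a member therefore rests more on that common spread than on its own control gap. The single knockdown libraries are assumed to vary like the controls.

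The balance of the neural pair changed with the library. Srrm4 RPKM divided by Srrm3 RPKM was 0.378 in shnSR100, against 0.797 in shGFP. It was 1.57 in siU2af65 and 0.442 in siPtbp1, against 0.539 and 0.750 in siCtrl a and b. siU2af65 was the single file in which Srrm4 stood above Srrm3, and it lay outside the range of the other 5. Together the neural pair summed to 9.11 RPKM in shnSR100, against 26.2 RPKM in shGFP. The ratios are a description, with no test.

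**Figure D4:**
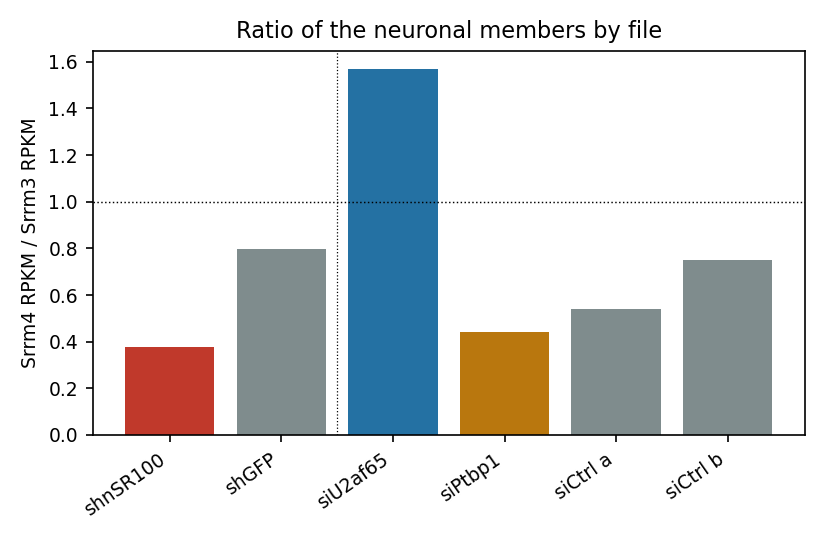
Srrm4 RPKM divided by Srrm3 RPKM in each N2A file (bars from 0, dotted horizontal line at a ratio of 1). siU2af65 stands at 1.57 and the other files between 0.378 and 0.797.

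Of 15 exon junction complex genes and splicing partners, the setting of the Srrm1 protein, edgeR called 0 after U2af65 knockdown, with differences of -0.70 to 0.66 and a median of 0.13. At an unadjusted p under 0.05 it had 3, and DESeq2 called 0 and limma 3. Over all genes these shares were 5.24% for edgeR, 23.5% unadjusted, 9.3% for DESeq2 and 11.4% for limma. After Ptbp1 knockdown edgeR, DESeq2 and limma each called 0, 0 were at an unadjusted p under 0.05, and the median was 0.08. The 3 highest in mean RPKM over the 6 files were Ddx39b, an RNA helicase gene of mRNA export (165 to 277 RPKM over the 6 files), Rnps1, a junction complex cofactor (76.8 to 136 RPKM), and Nxf1, the mRNA export receptor (77.6 to 158 RPKM). Eif4a3, the helicase core of the junction complex, named after its values were seen, ran from 78.1 to 146 RPKM and exceeded Nxf1 in shnSR100, shGFP and siPtbp1. The median over all tested genes was -0.0040 after U2af65 knockdown and 0.014 after Ptbp1 knockdown.

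Of 15 measured late spliceosome genes, the setting of the Srrm2 protein, edgeR called 0 after U2af65 knockdown, with a median of 0.20. At an unadjusted p under 0.05 it had 1, DESeq2 called 0 and limma 1, against all-gene shares of 5.24% (edgeR), 23.5% (unadjusted), 9.3% (DESeq2) and 11.4% (limma). After Ptbp1 knockdown all 3 tools called 0, 0 were at an unadjusted p under 0.05, and the median was -0.03. Eftud2, a GTPase gene of the U5 particle, ran from 147 to 168 RPKM over the 6 files, Prpf19, a ubiquitin ligase gene of the spliceosome, from 63.8 to 122 RPKM, and Prpf8, its central scaffold, from 58.6 to 67.4 RPKM. Between the hairpin files 0 of 15 were past the 2-fold mark in this list and 0 of 15 in the junction complex list, where 0.918% of all genes were, with medians of 0.09 and 0.16.

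Of 19 tested nuclear speckle and SR protein kinase genes, 1 passed the edgeR test after U2af65 knockdown, a share near the 5.24% of all genes and no result about the list. That gene, Rsrc1, fell. Rsrc1, an arginine and serine rich splicing factor gene, stood at 17.0 RPKM in siU2af65, against 32.3 and 37.2 RPKM in siCtrl a and b. Its difference was -1.13 (edgeR adjusted p = 0.0350), and the call was lost with a mean of at least 5 RPKM (adjusted p = 0.0541) and with shGFP added to the controls (adjusted p = 0.443). With shGFP added no gene was called, the targeted U2af2 included, so that loss says nothing of Rsrc1 itself. edgeR called 0 genes of the list higher, and its median was -0.08. Thrap3 and Luc7l, named after their values were seen, were higher without an edgeR call, by log2 differences of 0.86 and 0.78. DESeq2 called 2 genes of this list and limma 3, and 3 had an unadjusted edgeR p under 0.05, against all-gene shares of 9.3%, 11.4% and 23.5%. After Ptbp1 knockdown edgeR, DESeq2 and limma called 0 of 19, with 0 at an unadjusted p under 0.05 and a median of -0.05. Rsrp1, Luc7l2 and Clk1 were the highest of the rest, and Clk1, a kinase gene of SR proteins, ran from 42.0 to 65.4 RPKM over the 6 files. Between the hairpin files 0 of 19 were past the 2-fold mark, with a median of 0.07.

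Of 19 genes known to carry nSR100-regulated exons and with at least 1 RPKM in a hairpin file, 0 were past the 2-fold mark, where 0.918% of all genes were. By any amount 16 of 19 were lower in shnSR100 than in shGFP, as were 44.0% of all 11877 genes. Differences ran from -0.40 (Daam1, an actin regulator gene) to 0.21 (Rest), with a median of -0.19, where the median over all genes was 0.03 and that of the 6 neuronal markers in the same files -0.79. The part of the marker shift in these differences was not tested. Rest, the repressor of neuronal genes including Srrm4, stood at 12.6 RPKM in shnSR100, against 10.8 RPKM in shGFP. In the siRNA libraries Rest had 9.50 RPKM in siU2af65 and 13.5 RPKM in siPtbp1, against 14.1 and 10.99 RPKM in siCtrl a and b. Its differences were -0.51 (SE 0.25, edgeR adjusted p = 0.259) after U2af65 knockdown and 0.04 (SE 0.25, edgeR adjusted p = 0.999) after Ptbp1 knockdown. Over this list edgeR called 0 of 19 genes after U2af65 knockdown (3 at an unadjusted p under 0.05, DESeq2 0, limma 1) and 0 of 19 after Ptbp1 knockdown (1 at an unadjusted p under 0.05, DESeq2 0, limma 1). The all-gene shares were 5.24%, 23.5%, 9.3% and 11.4% after U2af65 knockdown and 0.0267%, 4.28%, 0.178% and 0.881% after Ptbp1 knockdown, for edgeR, unadjusted edgeR, DESeq2 and limma in that order. The translation factor gene Eif4g1 was highest in this list, at 118 to 188 RPKM over the 6 files, followed by Eif4g3 at 46.2 to 63.6 RPKM and the kinesin gene Kif1b at 40.9 to 55.9 RPKM.

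The genes whose log2(RPKM + 1) followed each member most closely over the 6 N2A files were found by Pearson's r, as a description over files that share cells and depth. Srrm4 was followed most closely by Syt14, a synaptotagmin gene (r = 0.965), Apba1, an adaptor gene of synaptic proteins (r = 0.944), and Gprin1, a neurite outgrowth gene (r = 0.944). Syt14 stood at 8.64 RPKM in shnSR100, against 13.4 RPKM in shGFP, and at 14.1 RPKM in siU2af65, against 9.55 and 10.9 RPKM in siCtrl a and b. Srrm3 was followed by Hsd17b7, a sterol synthesis gene (r = 0.977), Ube3b (r = 0.973) and Phf21b (r = 0.968). Phf21b stood at 15.2 RPKM in shnSR100, against 35.5 RPKM in shGFP.

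Srrm1 was followed by Bcl10, a signalling adaptor gene, the transcription factor gene Yy1 and Spaca6 (r = 0.993, 0.991 and 0.989), and Srrm2 by Gng2, a G protein subunit gene, Map3k4 and Vegfa (r = 0.994, 0.985 and 0.976). At r of 0.95 or more Srrm1 had 65 genes, Srrm2 12, Srrm3 10 and Srrm4 1. They were picked from the tested genes with a symbol over only 6 files. How many genes would reach this r by chance was not tested. Among the members themselves r was 0.57 for Srrm3 with Srrm4 and 0.65 for Srrm1 with Srrm2, below the r of the 3 genes named for each. Across the pairs r was also 0.57 for Srrm2 with Srrm4. It was 0.11 for Srrm2 with Srrm3, -0.13 for Srrm1 with Srrm3 and -0.14 for Srrm1 with Srrm4.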

How the data were processed

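Of 22 samples, 10 were RNA-seq with 8 processed files, and the 12 crosslinking samples were not analysed here. The authors deposited, per Ensembl gene and with no header, a read count and an RPKM, which the values show to be the count over a fixed gene length and the summed count of that file. A blank count was read as 0. No RPKM was given for 1114 mouse genes. Bowtie, bedtools 2.17.0 and the builds mm9 and hg19 are named per the submitters' processing notes, and the counting rule, strand use and annotation are not given in the sources used here. Total RNA was extracted with TRI Reagent for standard Illumina mRNA libraries, per the labels' protocols.

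edgeR 4.0.16 (R 4.3.3) was fitted to counts of the 4 siRNA libraries with TMM scaling and Benjamini-Hochberg adjustment over all 11237 genes averaging 1 RPKM or more. The SE is the log2 difference divided by the square root of F. The threshold was an adjusted p of 0.05. DESeq2 1.42.0 and limma 3.58.1 were alternatives. The edgeR step was tested on simulated data. Single-control values use TMM-scaled log2 CPM with no test. Hairpin files were described, not tested. Symbols and promoters came from RefSeq-based tables.

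The 4 members and the gene lists were chosen with earlier results of these data known. Named genes are the members, the targeted genes and Rest, list genes called or past 2-fold (otherwise up to 3 of highest RPKM), and the 3 genes closest to each member by Pearson's r. A marker list is not reported here.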

Additional observations from a re-analysis of the deposited data

Results flagged for a closer look

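One signal lies in the 293T files, which the comparisons of the Srrm genes do not use. The human identifier ENSG00000139767 had 65917 reads (71.1 RPKM) in 293T cells expressing nSR100, against 9 reads (0.00959 RPKM) in the 293T control, the widest increase on the log2(RPKM + 1) scale. The next identifier had 3240 reads in nSR100-expressing cells, against 47 in the control. No symbol was paired with either identifier, and each group had 1 file.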

How the results depend on the processing

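For the members in the siRNA comparisons, 81 of 96 alternative values with a test kept their direction and their side of the threshold, 7 changed sign and 8 became calls. Leaving out control a or control b gave 16 single-control values, which have no test. Of these 3 changed sign, all with control a left out: Srrm2 after U2af65 knockdown (0.20) and Srrm1 (0.13) and Srrm3 (-0.12) after Ptbp1 knockdown. Srrm2 after U2af65 knockdown was 0.074 with library totals, 0.082 and 0.082 with limma at pseudocounts of 1 and 0.1, and 0.061 with shGFP added to the controls. Srrm1 after Ptbp1 knockdown was 0.012 with shGFP added, and Srrm3 after Ptbp1 knockdown was -0.0096 with a mean of at least 5 RPKM and -0.15 with shGFP added. Srrm4 after U2af65 knockdown became a call with library totals (0.90) and no filter (0.76). Srrm4 in siU2af65 minus siPtbp1 became a call with DESeq2 size factors (1.37), library totals (1.41), DESeq2 (1.37), limma (1.24 and 1.40 for pseudocounts of 1 and 0.1) and no filter (1.32). Calls over all genes for U2af65, Ptbp1 and their difference were 589, 3 and 407 in the fit reported. They were 1162, 86 and 985 with library totals, 1045, 20 and 801 with DESeq2, 1285, 99 and 1066 with limma, 1261, 106 and 1053 with limma at 0.1, 1649, 99 and 1279 with no filter, 257, 1 and 114 with at least 5 RPKM, and 0, 0 and 0 with shGFP added. With shGFP added the targeted genes were not called either, with U2af2 at -2.55 after U2af65 knockdown and Ptbp1 at -4.05 after Ptbp1 knockdown. The causes of these changes were not tested. Between the hairpin files, DESeq2 size factors gave -0.055 for Srrm1 and -0.43 for Srrm2. Srrm3 was -1.13 with a pseudocount of 0.1 and -1.14 with none, and Srrm4 -2.17 and -2.22. Against siCtrl a the shnSR100 differences of Srrm1 to Srrm4 were -0.77, -0.71, -0.31 and -0.66, and against siCtrl b those of Srrm1, Srrm3 and Srrm4 were -0.31, -0.68 and -1.42. No paired analysis was possible because each knockdown and the control of its letter form a single pair without a replicate, and the hairpin runs were combined. Depth limits little here, since the fewest reads of a member in a file were 1365, but each knockdown and each hairpin group had 1 file.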

Other observations

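The control cells themselves differed in the neural members. Srrm4 stood at 11.6 RPKM in shGFP, against 4.54 and 8.37 RPKM in siCtrl a and b, and Srrm3 at 14.6 RPKM in shGFP, against 8.42 and 11.2 RPKM in siCtrl a and b. Srrm1 was lower in shGFP, at 90.3 RPKM, against 152 and 111 RPKM in siCtrl a and b. These cells differ in delivery and selection as well as in the RNA they were given, and no test was made.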
